A study of Mus musculus with 6 samples.

Results

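Chemokine ligands are small secreted proteins that draw cells along a concentration gradient, and 10 of their genes were followed here in cells grown from dorsal root ganglia (DRG), the paired ganglia along the spinal cord that hold sensory neurons and their glia. The members were given by name: Ccl2, Ccl7, Ccl11, Cxcl1, Cxcl2, Cxcl5, Cxcl10, Cxcl12, Cxcl14 and Cx3cl1, which are 10 of the 45703 genes of the count table. All 10 names occurred once in it. RNA sequencing was done on 6 biological replicates of a mixed primary culture, numbered 1 to 6 as in their titles, and all 6 formed a single group. The mice were wild-type C57BL/6, aged 4 to 6 weeks, and the dissociated ganglia were kept for 7 days on poly-L-lysine in medium with 10% serum plus EGF and FGF at 10 ng/ml, with the RNA of each sample taken from 2 dishes. The labels do not say which mice gave which culture. No fresh tissue was analysed here, so each result below is a level or a difference between replicate cultures.

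The family is named after the spacing of the first cysteines of the protein, which are adjacent in CC ligands such as Ccl2 and have other residues between them in CXC and CX3C ligands. CC ligands mostly attract monocytes and eosinophils, the CXC ligands Cxcl1, Cxcl2 and Cxcl5 attract neutrophils, Cxcl10 is induced by interferons and attracts activated T cells, and Cxcl12 and Cxcl14 are made constitutively in many tissues. In the DRG, Ccl2 and Cx3cl1 are known for their part in signalling between neurons, satellite glia and macrophages after nerve injury.

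Members lay in groups on chromosomes 11 and 5 and at 3 single places (GRCm38.p6, counted from 1). Ccl2 (chromosome 11, 82035577 to 82037452), Ccl7 (82045712 to 82047525) and Ccl11 (82057832 to 82062955) followed each other on the plus strand within 27379 bases with 0 annotated genes between neighbours. Cxcl5 (chromosome 5, 90759298 to 90761625), Cxcl1 (90891245 to 90893121), Cxcl2 (90903899 to 90905938) and Cxcl10 (92346638 to 92348889, minus strand) lay within 1.59 Mb. Between Cxcl5 and Cxcl1 lay 4 annotated genes, and between Cxcl1 and Cxcl2 lay 0. Cxcl10 was apart from these, 1440699 bases and 40 annotated genes beyond Cxcl2. Cxcl12 is on chromosome 6 (117168535 to 117181368), Cx3cl1 on chromosome 8 (94772180 to 94782427) and Cxcl14 on chromosome 13 (56288643 to 56296811, minus strand). The lower coordinate of all 10 equalled that of RefSeq on that build. For Cxcl10 and Cxcl14, on the minus strand, this is the end of the gene, so the comparison does not cover their transcription starts.

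The sequence before the transcription start is shown for 5 genes, because Cxcl10 was lowest in culture 5, where Cx3cl1 and Cxcl12 were highest, and because Cxcl1 and Cxcl2 are close copies with low counts. RefSeq promoter sequences on GRCm38.p6 matched 6 of the 10 members; the window of Cxcl14 lay inside that gene as the count table places it and was not used. Capitals mark matches, on either strand, to the kappaB consensus motif, the binding motif of NF-kappaB, or to GAAANNGAAA, the core of the interferon-stimulated response element. The first 3 sequences are the 250 bases before the start and the last 2 are 60 bases around a match, all written 5′ to 3′ on the strand of the gene.
Cxcl10, chr5:92348890-92349139, minus strand: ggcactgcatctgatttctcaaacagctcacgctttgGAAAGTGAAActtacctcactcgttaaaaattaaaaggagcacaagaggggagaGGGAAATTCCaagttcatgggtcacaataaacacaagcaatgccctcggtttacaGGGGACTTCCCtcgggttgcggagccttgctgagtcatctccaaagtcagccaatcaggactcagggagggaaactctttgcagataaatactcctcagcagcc
Cx3cl1, chr8:94771930-94772179, plus strand: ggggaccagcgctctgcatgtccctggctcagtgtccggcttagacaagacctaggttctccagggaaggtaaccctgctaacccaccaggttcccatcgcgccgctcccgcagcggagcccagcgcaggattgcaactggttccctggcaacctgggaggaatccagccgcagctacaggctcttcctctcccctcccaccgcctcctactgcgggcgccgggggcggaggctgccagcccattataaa
Cxcl12, chr6:117168285-117168534, plus strand: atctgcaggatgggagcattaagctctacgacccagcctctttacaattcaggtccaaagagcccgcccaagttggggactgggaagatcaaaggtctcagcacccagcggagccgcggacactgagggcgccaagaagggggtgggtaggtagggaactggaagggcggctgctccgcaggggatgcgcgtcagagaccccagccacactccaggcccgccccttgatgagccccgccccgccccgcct
Cxcl1, chr5:90891149-90891208, plus strand: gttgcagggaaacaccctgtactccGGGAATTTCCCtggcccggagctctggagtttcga
Cxcl2, chr5:90903777-90903836, plus strand: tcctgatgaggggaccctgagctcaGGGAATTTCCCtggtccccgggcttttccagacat

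Cxcl10 held 2 kappaB matches, whose first bases lay 159 and 104 bases before the start, and 1 match to GAAANNGAAA at 213 bases. Cxcl1 and Cxcl2 each held 1 kappaB match, at 71 and 97 bases, with the same 11 letters GGGAATTTCCC, which match on both strands. The windows of Cx3cl1 and Cxcl12 held 0 of either. The window of Cxcl14 that was not used held 1 match to GAAANNGAAA, at 172 bases, and 0 kappaB matches. As it lay inside that gene, it is not compared with the others. Of 32851 promoter entries, 7.25% held a kappaB match and 2.98% a GAAANNGAAA match in the same window. Neither motif was thus particular to the genes shown. A match describes letters and is not evidence of binding.

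The libraries held 20070639 to 22968642 counts, and CPM below is a gene's count scaled to its library total in the usual way. Marker lists of peripheral glia, neurons, fibroblasts, mural cells and macrophages were represented in all 6 cultures, and those of other leukocytes were nearly absent, with a summed level of 0 to 0.249 CPM. Cultures 1 and 5 stood at the ends for several lists. The summed fibroblast markers were 3341 CPM in culture 1 and 14113 CPM in culture 5, with the other 4 between 4441 and 7481 CPM. The summed peripheral glia markers were 6009 CPM in culture 1 and 4162 CPM, the lowest, in culture 5.

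Of the 10 members, 7 had at least 1 CPM in all 6 libraries: Ccl2, Ccl7, Ccl11, Cxcl10, Cxcl12, Cxcl14 and Cx3cl1. Among all genes of the table, 30.4% reached this. The 3 ligands of the neutrophil receptor, Cxcl1, Cxcl2 and Cxcl5, did not. Together the 10 genes summed to 160 ± 77.4 CPM (SD, n = 6), from 76.0 CPM in culture 1 to 259 CPM in culture 5. They held 87.6% ± 2.32 of the counts of all 38 chemokine ligand genes that were listed (SD, n = 6).

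**Figure D1:**
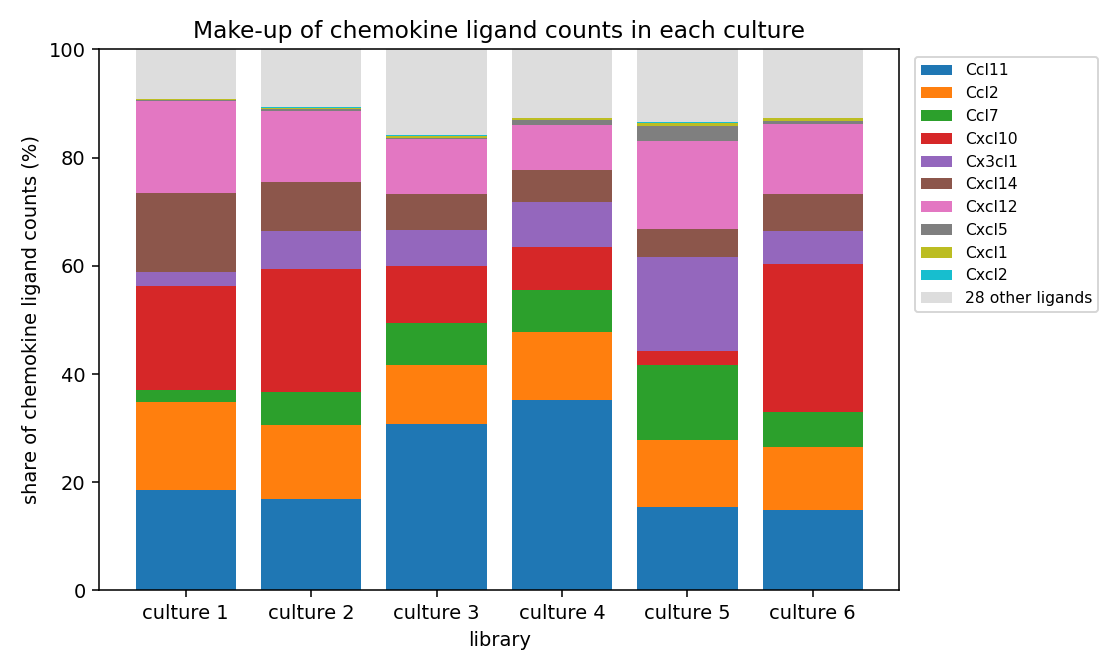
Share of all chemokine ligand counts (percent, vertical axis) that fell in each of the 10 members and in the 28 other listed ligands together, for each culture. Ccl11 took 35.3% in culture 4 and 14.9% in culture 6, and Cxcl10 took 27.4% in culture 6 and 2.60% in culture 5.

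Compared per kb of exon length, the CC ligands and Cxcl10 had the highest means. Ccl11 averaged 39.9 ± 30.4 CPM per kb, Ccl2 28.4 ± 13.2, Ccl7 19.8 ± 17.8 and Cxcl10 19.6 ± 9.30 CPM per kb (SD, n = 6). Below them came Cx3cl1 at 5.66 ± 5.85, Cxcl14 at 4.09 ± 0.907 and Cxcl12 at 3.20 ± 1.83 CPM per kb. Cxcl5 at 1.32 ± 1.94, Cxcl1 at 0.682 ± 0.457 and Cxcl2 at 0.174 ± 0.205 CPM per kb came last. The length is that of all exons of a gene combined, which for Cxcl12 was 7161 bases. The longest coding transcript of Cxcl12 in GENCODE M21 was 5627 bases and the shortest 1878 bases, so its level per kb depends on which isoform was present. With the longest GENCODE transcript as the length, Cxcl14 had 6.99 in place of 4.09 CPM per kb, above Cx3cl1 at 5.37, Cxcl2 had 0.102 in place of 0.174, and Cxcl12 had 4.07 in place of 3.20 CPM per kb.

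**Figure D2:**
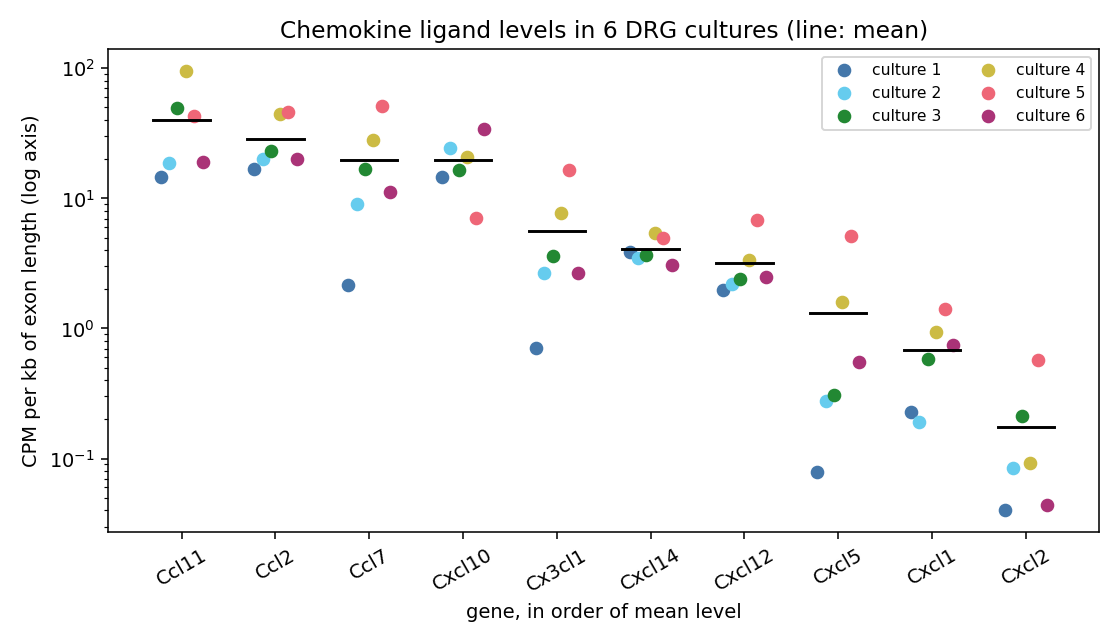
Level of each member in each of the 6 cultures, in CPM per kb of combined exon length on a log axis, with genes in order of their mean (black line). The 4 leading genes overlap one another, and Cxcl2 is lowest in all 6 cultures.

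Most neighbours in this order did not differ beyond their spread between cultures. Of the 9 neighbouring pairs, 2 had the same order in all 6 libraries: Cxcl12 above Cxcl5, by 2.38 ± 1.52 on the log2 scale, and Cxcl1 above Cxcl2, by 2.31 ± 1.21 (mean and SD of the within-library difference, n = 6). Ccl11 was above Ccl2 in only 2 of 6 libraries, namely cultures 3 and 4. Ccl7 was above Cxcl10 in 3 of 6 libraries. Ccl2 exceeded Ccl7, Cxcl10 exceeded Cx3cl1 and Cxcl14 exceeded Cxcl12 in 5 of 6 libraries each, the exception being culture 5 each time. The leading gene was Ccl2 in culture 1, Cxcl10 in cultures 2 and 6, Ccl11 in cultures 3 and 4 and Ccl7 in culture 5.

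Among the CC ligands, Ccl2, the main attractant of monocytes, had 13.6, 16.3, 18.6, 35.7, 37.3 and 16.1 CPM in cultures 1 to 6. Cultures 4 and 5 were thus at about the same level and the other 4 lay below them, between 13.6 and 18.6 CPM. Ccl7, which also attracts monocytes, had 1.74, 7.19, 13.4, 22.5, 41.2 and 8.89 CPM. Its highest library, culture 5, was 23.7 times its lowest, culture 1, against 2.74 times for Ccl2, its neighbour on the chromosome. The ratio of Ccl7 to Ccl2 counts went from 0.128 in culture 1 to 1.11 in culture 5.

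Ccl11, known as eotaxin because it attracts eosinophils, had 15.6, 20.2, 52.9, 101 and 46.2 CPM in cultures 1 to 5 and 20.5 CPM in culture 6. Unlike its 2 neighbours it was highest in culture 4. Cultures 1, 2 and 6 lay between 15.6 and 20.5 CPM, and cultures 3, 4 and 5 between 46.2 and 101 CPM. The macrophage markers divided the cultures in the same way, with a summed level of 14.5, 26.9 and 38.7 CPM in cultures 1, 2 and 6 and of 111, 126 and 158 CPM in cultures 3, 4 and 5. Of that list, 8 of 8 genes were lowest in culture 1, and none was at 0 in all libraries. The same division held for Ccl2, Ccl7 and Cx3cl1, so it was not particular to Ccl11. It also held for some fibroblast markers, among them Lum, which like Ccl11 was highest in culture 4, at 78.9 CPM. The macrophage marker C1qa was highest in culture 4 too, at 25.9 CPM. Most genes of both lists were instead highest in culture 5, namely 7 of 8 fibroblast and 6 of 8 macrophage markers. The summed fibroblast markers did not divide in this way, with 6079 CPM in culture 2 and 4441 CPM in culture 3. The part of either list in the Ccl11 pattern was not tested. In bulk RNA, fewer cells of a type and less RNA per cell cannot be told apart.

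Cxcl1, Cxcl2 and Cxcl5, which bind the neutrophil receptor Cxcr2, were close to the limit of detection. Cxcl2 had 1, 2, 5, 2, 13 and 1 counts in cultures 1 to 6, and its level of 0.621 CPM in culture 5 had an exact 95% Poisson interval from 0.331 to 1.06 CPM. Cxcl1 had 5, 4, 12, 18, 28 and 15 counts. Intervals cover counting error only. Cxcl5 had 3, 10, 11, 53, 178 and 19 counts, so it stood well above its low cultures in culture 5, where it reached 8.50 CPM (exact 95% Poisson interval 7.30 to 9.85). In the next highest library, culture 4, it had 2.64 CPM (1.98 to 3.45).

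Cxcl10 differed from the other members at its extremes. It had 16.1, 27.0, 18.2, 22.8, 7.79 and 37.7 CPM in cultures 1 to 6, so that culture 5 was the lowest and culture 6 the highest, a ratio of 4.84. In cultures 1, 3 and 4 it lay on the same side of its mean as Cxcl12 and Cx3cl1, and in cultures 2, 5 and 6 on the other side. Of the genes kept by the low-count filter described below, 5.33% were likewise highest in culture 6 and lowest in culture 5, and 26.2% were lowest in culture 5. The related interferon-induced ligands Cxcl9 and Cxcl11 were low, at 0.526 ± 0.571 and 0.484 ± 0.289 CPM (SD, n = 6). The peripheral glia markers also had their lowest sum in culture 5, with 6 of 6 genes lowest there and none at 0. Their part in the Cxcl10 pattern was not tested.

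Cxcl10 lies inside another gene, Art3 (chromosome 5, 92331799 to 92414628, plus strand), an ADP-ribosyltransferase family member read from the other strand. Art3 was counted at 168, 215, 213, 205, 106 and 199 CPM in cultures 1 to 6, and it too was lowest in culture 5. The exons of the 2 genes share 133 bases in GENCODE M21. There the exons of Cxcl10 together cover 2252 bases, its whole span, against 1101 bases of exon length in the count table. Some or all of the shared bases may thus lie outside the exons that were counted. The libraries were stranded, but the strand setting of the counting is not given in the sources used here, so reads of Art3 and of Cxcl10 in shared bases cannot be told apart. Cxcl10 counts were whole numbers in all 6 libraries. The spread of Cxcl10 was wider than that of Art3, whose highest library was 2.03 times its lowest.

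Of the constitutive ligands, Cxcl12 had 14.2, 15.7, 17.3, 23.9, 48.7 and 17.7 CPM in cultures 1 to 6. Culture 5 stood apart, and without it the highest library was 1.68 times the lowest, against 3.43 times with it. Cxcl14 was the steadiest member, with 12.2, 10.9, 11.5, 16.9, 15.6 and 9.61 CPM, a ratio of 1.76 between the highest and the lowest. Cx3cl1, a membrane-bound ligand that is shed to become soluble, had 2.22, 8.42, 11.3, 24.3, 52.2 and 8.32 CPM. It was as variable as Ccl7, with a ratio of 23.5 between cultures 5 and 1, and 2.92 among the 4 cultures that remain without them.

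**Figure D3:**
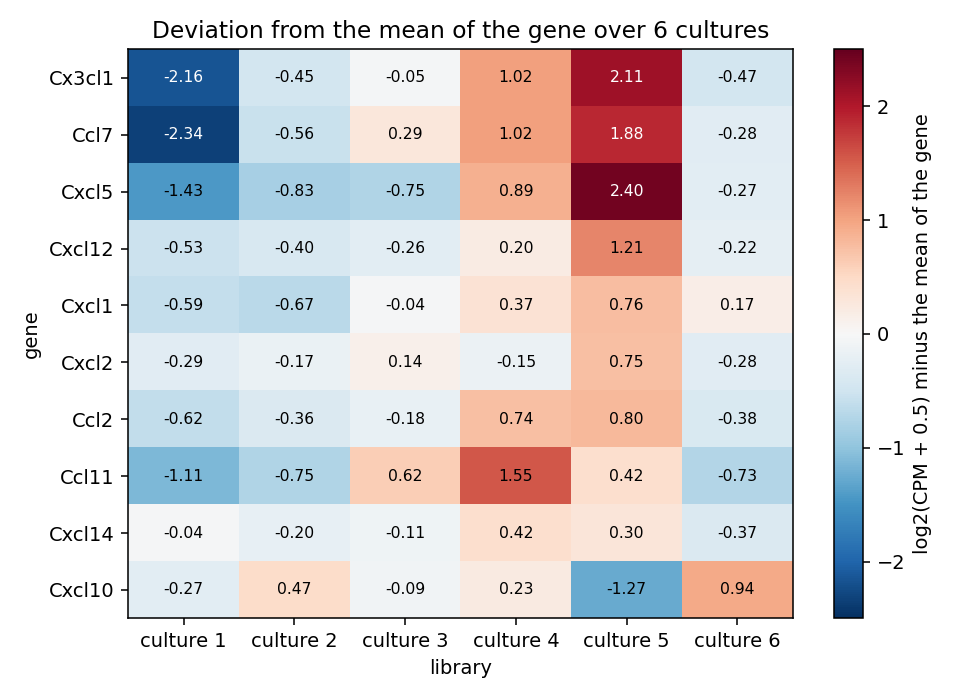
Deviation of each member in each culture from its own mean over the 6 cultures, as log2(CPM + 0.5), with red above and blue below the mean. Cx3cl1 and Ccl7 run from -2.16 and -2.34 in culture 1 to 2.11 and 1.88 in culture 5, and Cxcl10 is at -1.27 in culture 5.

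Culture 5 was the highest library for 7 of the 10 members (Ccl2, Ccl7, Cxcl1, Cxcl2, Cxcl5, Cxcl12 and Cx3cl1), and for 4 of the 7 members kept by the low-count filter, where 29.2% of all kept genes were highest in it. Culture 1 was the lowest for 7 of 10 and for 5 of the 7 kept, against 23.8% of all kept genes. When culture 5 was left out, culture 4 was the highest for 8 of 10 members and 6 of the 7 kept, against 23.7% of kept genes. The closest pair among the 10 was Ccl7 and Cx3cl1, on different chromosomes, whose centred log2 levels differed by a root mean square of 0.21 over 6 cultures. The farthest was Cxcl5 and Cxcl10, at 1.77.

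Beside the high levels in culture 5 stood the marker lists of other cell types. Fibroblast markers were highest in culture 5 for 7 of 8 genes, endothelial markers for 6 of 6, mural markers for 5 of 6 and macrophage markers for 6 of 8. Summed endothelial markers were 8.14 CPM in culture 1, 19.3 to 38.7 CPM in cultures 2, 3, 4 and 6, and 116 CPM in culture 5. Cldn5 of that list was at 0 in 3 libraries and reached 2.25 CPM in culture 5. Summed mural markers ran from 231 CPM in culture 1 to 661 CPM in culture 5. Neuron markers had their lowest sum, 864 CPM, in culture 5 and their highest, 1817 CPM, in culture 3. The part of these lists in the chemokine levels was not tested.

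**Figure D4:**
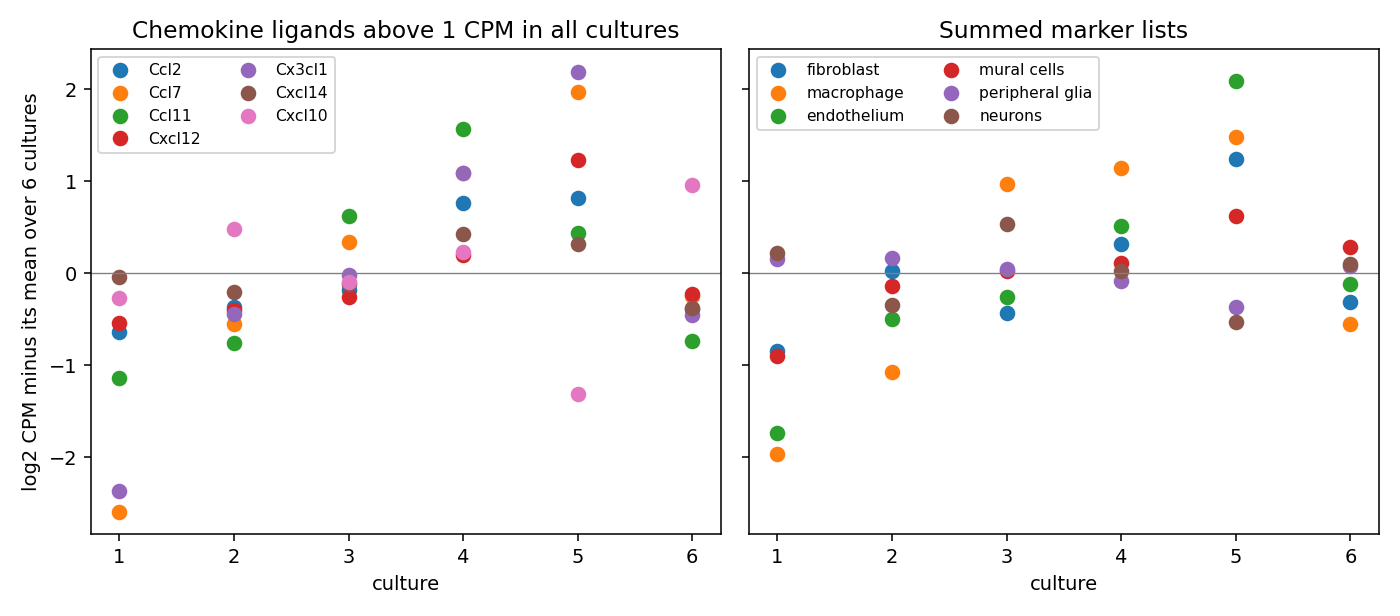
Log2 CPM minus its mean over the 6 cultures, for the 7 members above 1 CPM in all cultures (left) and for 6 summed marker lists (right), with 1 point per culture. Cx3cl1 and Ccl7 lie at the top in culture 5 together with the endothelial and macrophage sums, and Cxcl10 lies at the bottom with the neuron and glia sums.

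The 7 members above 1 CPM in all libraries were also those kept by the filter on low counts, which asked for a minimum level in every library; Cxcl1, Cxcl2 and Cxcl5 did not pass it. All 7 varied between cultures by more than counting noise (chi-square test of the 6 counts, Benjamini-Hochberg adjusted over 14998 genes), but so did 76.3% of all genes tested. The largest adjusted p of the 7 was 2.01e-11, for Cxcl14. Without the filter Cxcl1, Cxcl2 and Cxcl5 passed too, with adjusted p = 3.16e-05, 1.65e-04 and 3.22e-105, against 50.2% of 26854 genes.

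Against genes of similar abundance, the spread of a member was expressed as its residual quasi-dispersion over the trend of edgeR's quasi-likelihood fit. This ratio was 81.8 for Cx3cl1, 71.0 for Ccl11, 67.0 for Ccl7, 24.6 for Cxcl10, 22.6 for Cxcl12, 18.5 for Ccl2 and 2.74 for Cxcl14. In edgeR's fit 0 of 7 members passed an adjusted p of 0.05, and 0% of the 14998 genes did. The adjusted p lay between 0.844 and 0.995. Unadjusted, 6 of 7 members had p under 0.05, from 0.00505 for Cx3cl1 to 0.0308 for Ccl2, against 5.39% of genes; Cxcl14 had 0.249. Without culture 5 the ratio of Cxcl12 was 3.75 with unadjusted p = 0.165, so 5 of 7 members had p under 0.05 in edgeR's fit, and that of Cx3cl1 was 40.6. Without culture 4 the ratio of Ccl11 was 30.2. Since this fit passed 0 genes in any setting, its 0 does not show that members varied like other genes. The SD of log2(CPM + 0.5) over cultures had a median of 0.70 over all 10 members and of 0.16 over all kept genes. The highest library was at least 2 times the lowest for 9 of 10 members and for 6 of the 7 kept, against 19.5% of kept genes. Without cultures 1 and 5 this held for 8 of 10 and for 5 of the 7 kept, against 9.03%.

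The genes closest in pattern were sought among 10267 genes with a mean of at least 10 CPM, for the 6 members at that level whose libraries differed at least 2-fold. The measure was the root mean square difference of centred log2(CPM + 0.5) over 6 cultures, without a test. Ccl7 was close to Svep1 (0.075) and to Spp1 (0.10), which encodes the secreted matrix protein osteopontin. Cx3cl1 was closest to the prostaglandin transporter gene Slco2a1 (0.11), to Dcn (0.11), the fibroblast proteoglycan decorin that is also in the marker list, and to Itga11 (0.12), a collagen-binding integrin subunit. These partners had the same wide range, for example 29.3 CPM in culture 1 and 461 CPM in culture 5 for Dcn.

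Ccl2 was closest to Bcat1 (0.13), Pknox2 (0.14) and Cpxm1 (0.17), and Cxcl12 to Myo1d (0.10), Frrs1 (0.12) and Rai14 (0.13). Ccl11 had no close partner, with Dpep1 at 0.24, Gm32255 at 0.37 and Plek at 0.40. Cxcl10 was closest to Cybrd1 (0.15), Aldh1l1 (0.18) and Atp1b2 (0.18), a beta subunit of the sodium pump. All 3 were highest in culture 6 or in culture 2 and lowest in culture 5, with Atp1b2 at 374 to 388 CPM in cultures 6 and 2 and at 101 CPM in culture 5. Art3 was in position 109 of 10266 by likeness to Cxcl10, at 0.42. With a pseudocount of 5 only 8 of the 18 nearest partners were found again, so the names are uncertain.

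The 28 ligands that are not members summed to 23.6 ± 13.2 CPM (SD, n = 6). Ccl25 (2.09 ± 0.337 CPM) and Ccl27a (2.56 ± 0.712 CPM) were the 2 of 28 above 1 CPM in all 6 libraries, and Ccl27a counts were fractional in all 6, so some of its reads may be shared with copies of the gene. Named after their values were seen, Ccl6 and Ccl9, ligands that myeloid cells make, and Cxcl16, another membrane-bound ligand, were higher on average. Ccl6 had 6.05 ± 5.92 CPM, Ccl9 3.90 ± 3.14 and Cxcl16 3.39 ± 2.18 CPM (SD, n = 6), all lowest in culture 1. Among the 28, 11 genes did not exceed 3 counts in any library, and 6 of these were at 0 throughout.

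The 23 receptor genes summed to 33.8 ± 12.4 CPM (SD, n = 6), below the 160 CPM of the 10 members and above the 23.6 CPM of the other ligands. Of these, 3 had at least 1 CPM in all libraries, against 30.4% of all genes. Ackr3, an atypical receptor that takes up Cxcl12, averaged 14.2 ± 6.02 CPM and ran from 5.44 CPM in culture 1 to 23.3 CPM in culture 5 (SD, n = 6). Ackr1, an atypical receptor that binds many CC and CXC ligands, averaged 6.84 ± 2.37 CPM and was lowest, at 2.87 CPM, in culture 5. Cx3cr1, the receptor of Cx3cl1 on macrophages, averaged 4.62 ± 2.92 CPM, with 6.88 to 7.43 CPM in cultures 3, 4 and 5 and 1.34 to 2.87 CPM in the others.

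For most members the signalling receptor looked at here was near or under the floor. Cxcr2, the receptor of Cxcl1, Cxcl2 and Cxcl5, Cxcr3, that of Cxcl10, and Ccr3, that of Ccl11, had at most 3 counts in every library; 3 counts correspond to 0.131 to 0.149 CPM. Ccr2, a receptor of Ccl2 and Ccl7, reached 4.50 counts at most. Cxcr2, Cxcr3, Ccr3 and Ccr2 were thus not detectable, or barely, at this depth. Ccr1, another receptor of CC ligands, ran from 2 counts in culture 1 to 49 counts, or 2.34 CPM, in culture 5. Cxcr4, the signalling receptor of Cxcl12, was above 1 CPM in 4 libraries and ran from 0.566 CPM in culture 1 to 6.45 CPM in culture 5.

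Cytokines that induce inflammatory chemokines were low, whereas their receptors and NF-kappaB subunits were counted throughout. Il1a, Il1b and Tnf did not reach 1 CPM in any library, Ifng and Ifnb1 had 0 counts in all, and Il6 averaged 1.35 ± 0.732 CPM. The TNF receptor Tnfrsf1a averaged 180 ± 15.8 CPM and the NF-kappaB subunits Rela and Nfkb1 127 ± 10.4 and 106 ± 9.93 CPM (SD, n = 6). The interleukin-1 receptor Il1r1 had its lowest level in culture 1, 10.1 CPM, and its highest in culture 5, 46.1 CPM. Ccl2, Ccl7, Cxcl2, Cxcl5, Cxcl12 and Cx3cl1 had the same ends, which are 6 of 10 members and 4 of the 7 kept. The summed fibroblast, endothelial, mural and macrophage markers had them too. Of all kept genes, 23.8% were lowest in culture 1 and 29.2% were highest in culture 5. The share of kept genes with both ends was not counted. The interferon-responsive factor Irf1 was lowest in culture 5, at 21.6 CPM, and highest in culture 6, at 36.2 CPM, the same ends as Cxcl10. Nfkbia, the inhibitor of NF-kappaB, had these ends too, at 18.6 and 31.4 CPM, and 5.33% of kept genes shared them.

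Of the proteases that act on chemokines, Adam10 and Adam17, which shed Cx3cl1, averaged 1054 ± 179 and 153 ± 23.6 CPM (SD, n = 6). Both were lowest in culture 5, where Cx3cl1 was highest. Mmp2, which can cleave Ccl7 and Cxcl12, averaged 213 ± 41.0 CPM. Dpp4, which trims Cxcl10 and Cxcl12, did not reach 1 CPM in any library. Mmp9, outside the rule for naming, had 17.7 CPM in culture 5 and 4.78 CPM in culture 4, and under 1 CPM elsewhere.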

How the data were processed

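Poly-A RNA of 6 cultures was sequenced as stranded libraries, with RNA integrity numbers of at least 8.7 per the labels' protocols. The deposited table holds estimated counts per gene, unscaled, with 13.4% to 14.7% of values per library not whole; the submitters' processing notes name cutadapt 2.5, STAR 2.7.2b, featureCounts 1.6.4 and GRCm38.p6, and settings for strand or shared reads are not given in the sources used here. Of the members, Cxcl14 and Cx3cl1 had a fractional count, in 1 library each. CPM used the column totals, and CPM per kb the combined exon length per the file headers.

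In R 4.3.3, rounded counts went into edgeR 4.0.16, with DESeq2 1.42.0 for alternative size factors. Genes kept by filterByExpr (14998) were scaled by TMM, with factors from 0.977 to 1.02, and tested for variation beyond counting noise (chi-square) and beyond the abundance trend (quasi-likelihood, intercept only, one-sided F), both adjusted by Benjamini-Hochberg over all genes tested. Both tests were also run on simulated counts, which had the same dispersion for every gene, unlike real counts. The outcome is not reported here and is not used as support for either test. Alternatives were DESeq2 size factors, no filter, whole counts only, another pseudocount, other detection minimums and each library left out.

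Named genes were the members, listed genes with at least 1 CPM in all libraries, and the 3 nearest in pattern to each of 6 members; the other genes named, among them receptors and cytokines under 1 CPM, Cxcl9, Cxcl11, Cxcr4, Cldn5, Dpp4 and Art3, fall outside this rule and were chosen after their values were seen. Some genes that the rule covers are not reported here. The members and lists were chosen with earlier results of these data known, and the motifs after the sequences were seen.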

Additional observations from a re-analysis of the deposited data

Results flagged for a closer look

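For each of the 10 members, 5 other ligands and receptors above 1 CPM in all libraries, and 12 list sums (27 measures), the distance from the most extreme culture to the next one was taken as a share of the whole range (Dixon's ratio). For independent, normally distributed values, chance puts about 1 in 20 such groups above its 95% critical value. The measures here are CPM levels and sums from the same libraries, so that rate need not hold for them. The critical value was exceeded 5 times. Cxcl12 had 0.72, with 48.7 CPM in culture 5 against 23.9 CPM in the next. Cxcl5 had 0.70, with 8.50 against 2.64 CPM, and Cxcl2 had 0.676, with 0.621 against 0.231 CPM, both with culture 5 highest. Cxcl2 rests on 13 counts there. The endothelial list had 0.717, with 116 CPM in culture 5 against 38.7 CPM. The list of leukocytes other than macrophages had 0.768, with 0.249 CPM in culture 4, a level of a few counts.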

How the results depend on the processing

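The alternative that leaves out cultures 1 and 5 together, and the one with GENCODE transcript lengths, were chosen after seeing the data. The neighbouring pairs in the same order in all libraries numbered 2 of 9, 2 to 3 with one culture left out and 4 without cultures 1 and 5. Of 10 members, 4 kept their position in the order with the median over cultures, 6 without culture 5 (Cxcl10 above Ccl7, Cxcl14 above Cx3cl1), 8 without culture 4, 8 without cultures 1 and 5, and 8 with GENCODE lengths. Other ligands above 1 CPM numbered 2, 2 to 4 with one culture left out (4 without culture 1), 4 without cultures 1 and 5 and 4 with at least 10 counts as the minimum. Of the 18 genes nearest in pattern, 8 were found again with a pseudocount of 5. The remaining 74 alternative values of the main results stayed within the bounds set. The bound was the spread between cultures for levels, and 1.5 times for numbers of genes. For a level, a mean with one culture left out or a median over cultures cannot leave this bound. Those alternatives thus say nothing of stability. The median SD of log2(CPM + 0.5) of the members, 0.70, was 0.50 without culture 5 and was also counted as within bounds. Without culture 5 the mean of Ccl7 was 10.7 in place of 15.8 CPM, that of Cx3cl1 10.9 in place of 17.8 CPM, that of Cxcl5 0.929 in place of 2.19 CPM and that of Cxcl2 0.103 in place of 0.189 CPM. The medians of Cx3cl1, Cxcl5 and Cxcl2 were 9.84, 0.708 and 0.0954 CPM. With one culture left out the sum of the members lay between 140 and 176 CPM. With whole counts only, 5 of 7 members could be tested, since Cxcl14 and Cx3cl1 drop out, and 5848 genes in place of 11444 passed the chi-square test, as fewer were tested. The edgeR fit passed 0 genes in each alternative, so this says nothing of stability. No paired analysis was possible because all samples belong to a single group. Depth limits Cxcl1, Cxcl2 and most receptors.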
